A study of Homo sapiens with 6 samples.

Results

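Among the genes of Panc-1 pancreatic cancer cells, 10 encode interleukins and colony-stimulating factors of interest here: IL32, IL1A, IL1B, IL6, IL11, LIF, IL18, IL23A, CSF1 and CSF2. They were taken by gene symbol from the expression table, and each matched 1 of its 42495 gene rows. After medium from chemoresistant CAFs, IL32 RNA was 27.0 times as high as after medium from chemosensitive CAFs, CSF1 RNA was 2.38 times as high, and IL18 RNA was 0.628 times as high. LIF, at means of 31.9 and 30.4 FPKM, did not differ past the test, and the other 6 genes were at 2.27 FPKM or less in every library.

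Panc-1 is an established human pancreatic carcinoma cell line. The cells were cultured for 72 h in medium conditioned by cancer-associated fibroblasts (CAFs) derived from pancreatic ductal adenocarcinoma, either from a chemosensitive tumor (CAFS-CM, n = 3) or from a chemoresistant tumor (CAFR-CM, n = 3), and total RNA depleted of ribosomal RNA was sequenced. In the study, chemosensitive and chemoresistant refer to the patient's response to platinum-based chemotherapy, and the CAFs came from tissue taken ahead of that treatment. Each medium came from 1 CAF line, so that a difference between the groups cannot be told apart from a difference between those 2 lines. No sample with unconditioned medium was analysed here. The question of the comparison was which RNAs of the tumor cells differ with the origin of the CAFs.

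Interleukins and colony-stimulating factors are secreted proteins through which cells of a tissue signal to leukocytes and to each other. IL1A, IL1B and IL18 belong to the IL-1 family, whose IL1B and IL18 precursors are cleaved by caspase-1 in inflammasomes. IL6, IL11 and LIF belong to the IL-6 family and signal through the shared receptor chain gp130 (IL6ST). CSF1 drives the growth and survival of macrophages, CSF2 (GM-CSF) that of granulocytes and macrophages, and IL23A is a chain of IL-23. IL32 is a proinflammatory cytokine with no close relative among the interleukins. In pancreatic cancer, cytokines of these families are made by tumor cells as well as by CAFs.

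The members are spread over the genome (GRCh38, GENCODE v44), apart from IL1A and IL1B, which are neighbors on chromosome 2. IL32 (Entrez gene 9235) spans 3065297 to 3082192 on the plus strand of chromosome 16, CSF1 (1435) spans 109910242 to 109930992 on the plus strand of chromosome 1, and CSF2 (1437) spans 132073789 to 132076170 on the plus strand of chromosome 5. IL18 (3606) spans 112143253 to 112164096 on the minus strand of chromosome 11, IL1A (3552) spans 112773925 to 112784493 and IL1B (3553) spans 112829751 to 112836816, both on the minus strand of chromosome 2. LIF (3976) spans 30240453 to 30246759 on the minus strand of chromosome 22, IL11 (3589) spans 55364382 to 55370463 on the minus strand of chromosome 19, IL6 (3569) spans 22725884 to 22732002 on the plus strand of chromosome 7, and IL23A (51561) spans 56334174 to 56340410 on the plus strand of chromosome 12. Exons of LIF share 86 bases with the antisense gene LIF-AS1 and 83 with LIF-AS2, of 3871 exonic bases, those of IL6 share 428 of 4321 with the antisense gene IL6-AS1 and 46 with STEAP1B, and IL32 shares 129 of 3209 with the small RNA pseudogene RNU1-125P on the same strand. No source used here states whether the counting took account of strand, and so reads of these overlaps cannot be assigned with certainty. LIF-AS1 was at 0.07 FPKM after CAFS-CM and listed at 0 after CAFR-CM, and IL6-AS1 at 0.0267 FPKM and 0.

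Promoter sequences from RefSeq (GRCh38.p14) were used for 7 of the 10 members, and those of LIF, IL18 and CSF1 were not analysed here. NF-kB is a transcription factor family known to act on many cytokine genes, and its consensus was found within 250 bases upstream of the RefSeq start of IL32, IL6 and IL23A, as it was in 9.96% of 35116 promoter windows of that length on either strand. The 3 promoters are shown because IL32 was called between the groups, while IL23A was not called and IL6 was too low to be tested. The consensus is in capitals. In IL32 the capitals hold 2 overlapping matches. GENCODE has transcripts of all 3 genes that start further upstream than the RefSeq start, so that the matches lie within the gene spans given above.
IL32, chr16:3065153-3065322, plus strand: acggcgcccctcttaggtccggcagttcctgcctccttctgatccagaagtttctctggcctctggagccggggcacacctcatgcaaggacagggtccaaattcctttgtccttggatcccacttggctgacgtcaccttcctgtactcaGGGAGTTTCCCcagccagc
IL6, chr7:22726950-22727172, plus strand: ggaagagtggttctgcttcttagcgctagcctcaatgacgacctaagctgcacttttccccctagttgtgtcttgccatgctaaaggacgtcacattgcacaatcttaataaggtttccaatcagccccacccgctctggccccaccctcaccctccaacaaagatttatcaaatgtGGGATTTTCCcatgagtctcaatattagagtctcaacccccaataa
IL23A, chr12:56338634-56338883, plus strand: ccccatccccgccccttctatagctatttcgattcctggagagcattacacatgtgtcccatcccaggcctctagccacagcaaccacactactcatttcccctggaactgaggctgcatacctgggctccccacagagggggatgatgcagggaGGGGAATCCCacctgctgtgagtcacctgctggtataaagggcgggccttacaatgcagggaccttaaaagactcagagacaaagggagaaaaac
The matches ended 89 bases (IL32), 64 bases (IL6) and 86 bases (IL23A) before the RefSeq start. The AP-1 motif TGANTCA was in the windows of IL1A, IL11 and IL23A and in 6.57% of all windows, the STAT motif TTCNNNGAA in those of IL1B and CSF2 and in 6.57% of all, and the cyclic AMP response motif TGACGTCA in that of IL32 and in 1.65% of all. Each was searched on both strands. The TGANTCA match of IL23A and the TGACGTCA match of IL32 did not overlap the NF-kB matches of these genes. A match describes the letters of these windows only.

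Levels are given as FPKM, fragment counts normalized to transcript length and to the library, which the authors deposited with 2 decimals. Since FPKM are per length, levels of different genes may be compared. The total over all genes was 660604 to 691568 FPKM per library after CAFS-CM and 666560 to 701406 after CAFR-CM. The table holds no counts and the lowest values did not settle the relative depths, so the depth is unknown and no counting interval is given. Epithelial markers summed to 5922 to 6163 FPKM after CAFS-CM and to 4959 to 5172 after CAFR-CM, and 2 of the 6 genes (EPCAM and CDH1) were higher and 2 (KRT18 and KRT19) lower. Of 12 fibroblast markers, 5 were tested and 1 was higher (COL1A1, 20.4 and 29.0 FPKM), FAP and PDPN were listed at 0 in every library, and COL1A2 and DCN did not pass 0.03 FPKM, while S100A4 (274.4 and 282.6 FPKM), COL3A1 (21.4 and 24.6 FPKM) and THY1 (2.74 and 2.51 FPKM) were expressed and not called. The summed fibroblast markers ranged from 307 to 336 FPKM and from 332 to 356. None of the 3 leukocyte markers tested was called, and 1 of them, ITGAM (0.0533 and 0.21 FPKM), was tested only through its CAFR-CM libraries. PTPRC, the pan-leukocyte gene, did not pass 0.01 FPKM. The 6 leukocyte markers summed to 33.6 to 36.6 and 36.2 to 42.0 FPKM, nearly all of it CD68. Of the endothelial markers 1 of 2 tested was higher (KDR), the 5 summing to 1.55 to 1.63 and 2.09 to 2.55 FPKM. The part of these markers in the results was not tested.

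Differences were tested with limma on log2(FPKM + 1) over the 23608 genes that passed 0.1 FPKM in 3 or more libraries, and genes were called at a Benjamini-Hochberg adjusted p under 0.05. A log2 fold change on this scale is that of FPKM + 1, of CAFR-CM against CAFS-CM, and understates the change of low genes. Over all genes tested 26.2% were called, 15.1% higher and 11.1% lower after CAFR-CM, with a median log2 fold change of 0.061. Of the 10 members 7 were tested, of which 3 were higher (IL32, CSF1 and CSF2), 1 was lower (IL18) and 3 were not called (LIF, IL11 and IL23A), with a median log2 fold change of -0.035. CSF2 passed the filter on low values only through its CAFR-CM libraries, as did 1.24% of all genes tested, and its call carries that condition. The groups of libraries did not overlap in 5 of the 10 members (the 4 called and LIF), against 29.1% of all genes above 0 in any library. These 5 were all among the 7 members tested, and over the 23608 genes tested the share without overlap was 43.2%.

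**Figure D1:**
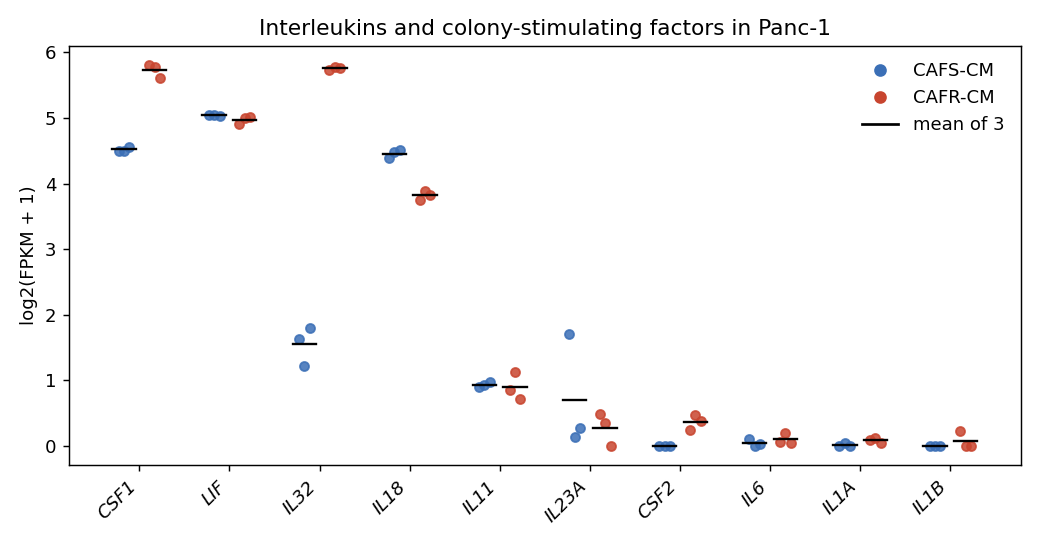
Level of the 10 genes in each library, as log2(FPKM + 1), with 3 points for CAFS-CM, 3 for CAFR-CM and a bar at each group mean. IL32 lay between 1.34 and 2.46 FPKM after CAFS-CM and between 52.21 and 53.75 FPKM after CAFR-CM, while the LIF points of the 2 groups lay close together.

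IL32 was the gene with the greatest difference among the members. It was at 2.08, 1.34 and 2.46 FPKM in CAFS-CM replicates 1, 2 and 3 and at 52.21, 53.75 and 53.02 FPKM in CAFR-CM replicates 1, 2 and 3. All CAFR-CM libraries were far above all CAFS-CM libraries, and the CAFR-CM values were close to each other, while the CAFS-CM values differed more in proportion, replicate 2 being the lowest. The mean went from 1.96 ± 0.570 FPKM (SD, n = 3) to 53.0 ± 0.770 FPKM (SD, n = 3), and over the pairs of libraries the ratio ran from 21.2 to 40.1. The log2 fold change was 4.21 (standard error 0.14, 95% interval 3.89 to 4.53, adjusted p = 7.89e-06 from limma). By its absolute log2 fold change IL32 was at rank 1 of the 23608 genes tested, and at rank 6 when 0.1 was added to the FPKM in place of 1. Its mean level was above that of 46.9% of the genes tested after CAFS-CM and above that of 92.9% after CAFR-CM. In bulk RNA, a greater share of cells with IL32 RNA and more IL32 RNA per cell cannot be told apart.

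**Figure D2:**
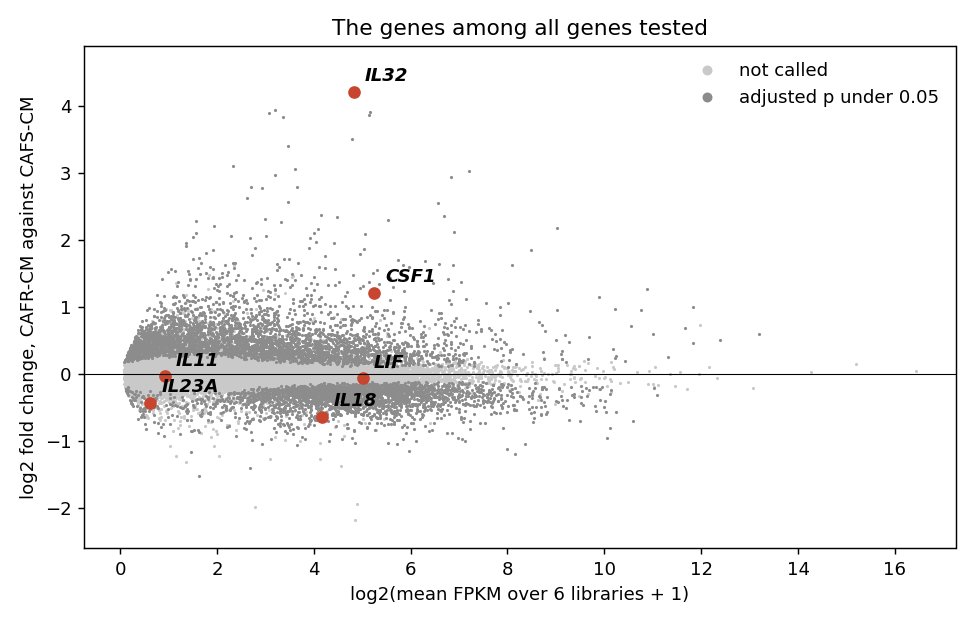
Log2 fold change of FPKM + 1 (CAFR-CM against CAFS-CM) against the log2 mean level of the 23608 genes tested, with called genes in darker gray and members named. CSF2 is left off, being listed at 0 in every CAFS-CM library. IL32 sits at 4.21, CSF1 at 1.21 and IL18 at -0.63.

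CSF1, the macrophage growth factor, also rose. It was at 21.64, 21.57 and 22.65 FPKM in the CAFS-CM replicates and at 54.99, 53.79 and 47.72 FPKM in the CAFR-CM replicates. The lowest CAFR-CM library, replicate 3, was still above each CAFS-CM library by at least 2.11 times. The means were 22.0 ± 0.604 and 52.2 ± 3.90 FPKM (SD, n = 3 each), and the log2 fold change was 1.21 (standard error 0.06, 95% interval 1.07 to 1.35, adjusted p = 4.55e-05 from limma), at rank 179 of all genes tested, and at rank 1044 with 0.1 added to the FPKM. Its mean level after CAFS-CM was already above that of 82.1% of the genes tested, and it was above that of 92.8% after CAFR-CM.

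CSF2 was at the lower end of what the table shows. It was listed at 0 in all 3 CAFS-CM libraries and at 0.19, 0.39 and 0.30 FPKM in the CAFR-CM replicates, a mean of 0.293 ± 0.10 FPKM (SD, n = 3). The groups did not overlap, and the test gave an adjusted p of 0.0109 from limma. No fold is given against a group listed at 0. At an adjusted p under 0.01, which 13.5% of the genes tested passed (7.42% higher and 6.06% lower), CSF2 was no longer called, while IL32, CSF1 and IL18 were. Without any of the CAFR-CM replicates 1, 2 or 3 the gene no longer passed the filter and was not tested. A listing of 0 in every CAFS-CM library with a value above 0 in every CAFR-CM library was found for 127 of 37870 genes above 0 in any library (0.335%). That pattern was taken from the CSF2 values themselves, and the 37870 genes include those at high levels. The share is therefore no support for the CSF2 difference.

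IL18 was the member that fell. This IL-1 family cytokine was at 19.91, 21.35 and 21.69 FPKM in the CAFS-CM replicates and at 12.5, 13.81 and 13.21 FPKM in the CAFR-CM replicates. Each CAFR-CM library was below each CAFS-CM library, at 0.576 to 0.694 times its level. The means were 21.0 ± 0.945 and 13.2 ± 0.656 FPKM (SD, n = 3 each), with a log2 fold change of -0.63 (standard error 0.06, 95% interval -0.76 to -0.50, adjusted p = 4.24e-04 from limma).

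The other IL-1 family members, IL1A and IL1B, which share a receptor, were near 0. IL1A was at 0, 0.03 and 0 FPKM in the CAFS-CM replicates and at 0.06, 0.09 and 0.03 FPKM in the CAFR-CM replicates. IL1B was listed at 0 in every library but CAFR-CM replicate 1, where it was at 0.17 FPKM. The groups overlapped for both genes, which were below the filter. With no filter, their adjusted p was 0.181 and 0.541 from limma.

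Of the IL-6 family members, LIF was among the most abundant genes of the set. It was at 31.93, 32.09 and 31.58 FPKM in the CAFS-CM replicates and at 28.93, 30.94 and 31.47 FPKM in the CAFR-CM replicates. All CAFR-CM values were below all CAFS-CM values, though the highest of the former, 31.47 FPKM, lay next to the lowest of the latter, 31.58 FPKM. The means of 31.9 ± 0.261 and 30.4 ± 1.34 FPKM (SD, n = 3 each) did not differ past the test (limma adjusted p = 0.312, log2 fold change -0.065, 95% interval -0.16 to 0.036).

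IL11, known for its action on megakaryocytes and fibroblasts, was at 0.87, 0.91 and 0.96 FPKM in the CAFS-CM replicates and at 0.81, 1.18 and 0.65 FPKM in the CAFR-CM replicates. The CAFR-CM values lay on either side of the CAFS-CM values (limma adjusted p = 0.856, log2 fold change -0.035, 95% interval -0.31 to 0.24, turning to 0.054 without CAFR-CM replicate 3). IL6, the inducer of acute-phase proteins, was at 0.08, 0 and 0.02 FPKM in the CAFS-CM replicates and at 0.04, 0.15 and 0.03 FPKM in the CAFR-CM replicates. The groups overlapped, the gene was below the filter, and the adjusted p with no filter was 0.584 from limma.

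The mean of IL23A after CAFS-CM was set by 1 library. The gene was at 2.27 FPKM in CAFS-CM replicate 1 and at 0.10 and 0.21 FPKM in CAFS-CM replicates 2 and 3, while the CAFR-CM replicates were at 0.40, 0.27 and 0 FPKM. The spread within CAFS-CM exceeded the difference between the groups (limma adjusted p = 0.483, log2 fold change -0.43, 95% interval -1.39 to 0.53). Without CAFS-CM replicate 1 the log2 fold change was 0.070.

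Together the 10 genes summed to 78.78, 77.39 and 79.57 FPKM in the CAFS-CM replicates and to 150.3, 154.37 and 146.43 FPKM in the CAFR-CM replicates, a ratio of 1.84 to 1.99 over the pairs of libraries. LIF, CSF1, IL18 and IL32 held 95.9 to 99.3% of the sum in each library. The composition differed between the groups. IL32 held 1.73 to 3.09% of the sum after CAFS-CM and 34.7 to 36.2% after CAFR-CM, and IL32 with CSF1 held 29.6 to 31.6% and then 68.8 to 71.3%.

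**Figure D3:**
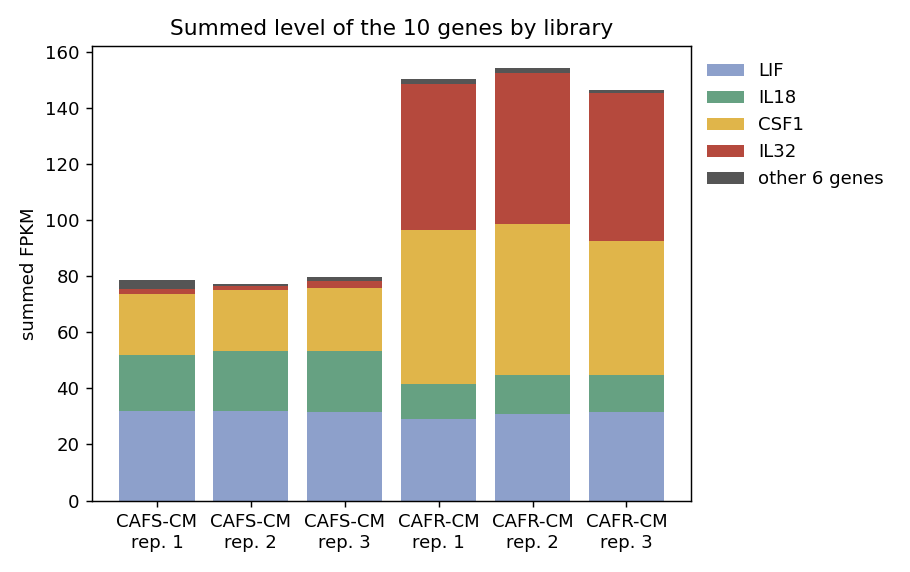
Summed FPKM of the 10 genes in each of the 6 libraries, stacked by gene (LIF, IL18, CSF1, IL32 and the other 6). The bars reach 77.39 to 79.57 after CAFS-CM and 146.43 to 154.37 after CAFR-CM, the added height being IL32 and CSF1.

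The order of the levels differed as well. After CAFS-CM it was LIF, then CSF1 and IL18, whose ranges overlapped, then IL32 in 2 of 3 libraries and IL23A in CAFS-CM replicate 1. After CAFR-CM, CSF1 and IL32 came first, with overlapping ranges, then LIF, IL18 and IL11 in every library. The ratio of IL32 to CSF1 in a library was 0.0621 to 0.109 after CAFS-CM and 0.949 to 1.11 after CAFR-CM, that of LIF to CSF1 was 1.39 to 1.49 and 0.526 to 0.659, and that of CSF1 to IL18 was 1.01 to 1.09 and 3.61 to 4.4. These ratios are within a library and do not depend on its total.

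Among 14828 genes whose mean was 1 FPKM or more, the patterns most like that of IL32 over the 6 samples were those of KDM4B, ALDOC and CYP1B1 (Pearson r of log2(FPKM + 1) of 0.99997, 0.9996 and 0.9996). KDM4B, a histone demethylase gene, was at a mean of 11.2 FPKM after CAFS-CM and 24.3 after CAFR-CM. ALDOC, an aldolase gene, went from 3.54 to 64.9 FPKM and CYP1B1, a monooxygenase gene, from 76.9 to 130.5 FPKM. An r above 0.99 was reached by 320 genes, and the 6 points fall into 2 groups, so r describes mostly the difference between groups.

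Receptors of the members were present for the IL-6 family and nearly absent for CSF1 and IL-23. Of 13 receptor genes listed 12 were in the table and 8 tested, 3 of them higher and none lower, where 15.1% of all genes tested were higher and 11.1% lower. Their median log2 fold change was 0.26 against 0.061 over all genes tested, and each of the 3 calls was lost under several alternatives. IL12RB1 was tested only through its CAFR-CM libraries. IL6ST, the gp130 chain shared by IL6, IL11 and LIF, was at 59.38, 53.80 and 63.37 FPKM in the CAFS-CM replicates and at 67.25, 83.05 and 86.64 FPKM in the CAFR-CM replicates. The groups did not overlap, and its level rose from 58.9 ± 4.81 to 79.0 ± 10.3 FPKM (SD, n = 3 each, limma adjusted p = 0.0269, log2 fold change 0.41). The call was lost without CAFS-CM replicate 1 or 2 or CAFR-CM replicate 2 or 3 (adjusted p = 0.0712, 0.0834, 0.0743 and 0.0680) and with no filter on low values (0.0618).

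IL1R1, the signaling receptor of IL1A and IL1B, was at 1.65, 1.53 and 1.63 FPKM in the CAFS-CM replicates and at 2.25, 2.16 and 2.62 FPKM in the CAFR-CM replicates (limma adjusted p = 0.0277, log2 fold change 0.36). IL1RAP, its co-receptor, was at 1.37, 1.57 and 1.67 FPKM and at 2.13, 1.99 and 2.43 FPKM (limma adjusted p = 0.0477, log2 fold change 0.33). Neither gene's groups overlapped, but both calls were close to the threshold. The IL1R1 call was lost without CAFS-CM replicate 1, 2 or 3 or CAFR-CM replicate 3 (adjusted p = 0.0714, 0.0910, 0.0765 and 0.0674), with no filter (0.0609), with a replicate block (0.0603) and with cyclic loess scaling (0.173, log2 fold change 0.19). That of IL1RAP was lost when any of the 6 libraries was left out (adjusted p = 0.0561 to 0.142), with no filter (0.103), with the block (0.0774), with equal totals (0.0703) and with cyclic loess scaling (0.272, log2 fold change 0.16).

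The receptor chains that bind the IL-6 family ligands did not differ past the test. IL6R was at a mean of 11.6 and 13.03 FPKM (adjusted p = 0.151) and LIFR at 12.4 and 11.51 FPKM (adjusted p = 0.373, both from limma). IL11RA was at 8.32 and 9.70 FPKM (adjusted p = 0.0518 from limma) and was called higher in 2 of 13 alternatives. These were 0.1 added to the FPKM (0.0476) and genes with a mean of 1 FPKM or more (0.0346). When a library was left out, the adjusted p of IL11RA was 0.0618 to 0.158. Of the receptors of the called members, CSF2RA was at 0.923 ± 0.284 and 1.45 ± 0.424 FPKM (SD, n = 3 each, adjusted p = 0.184 from limma). CSF1R, the CSF1 receptor, did not pass 0.03 FPKM in any library, and CSF2RB, the signaling chain for CSF2, did not pass 0.06 FPKM. IL18R1 was at 0.05, 0 and 0 FPKM in the CAFS-CM replicates and at 0.09, 0.14 and 0.10 FPKM in the CAFR-CM replicates, and IL23R did not pass 0.04 FPKM. IL18RAP was not analysed here.

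**Figure D4:**
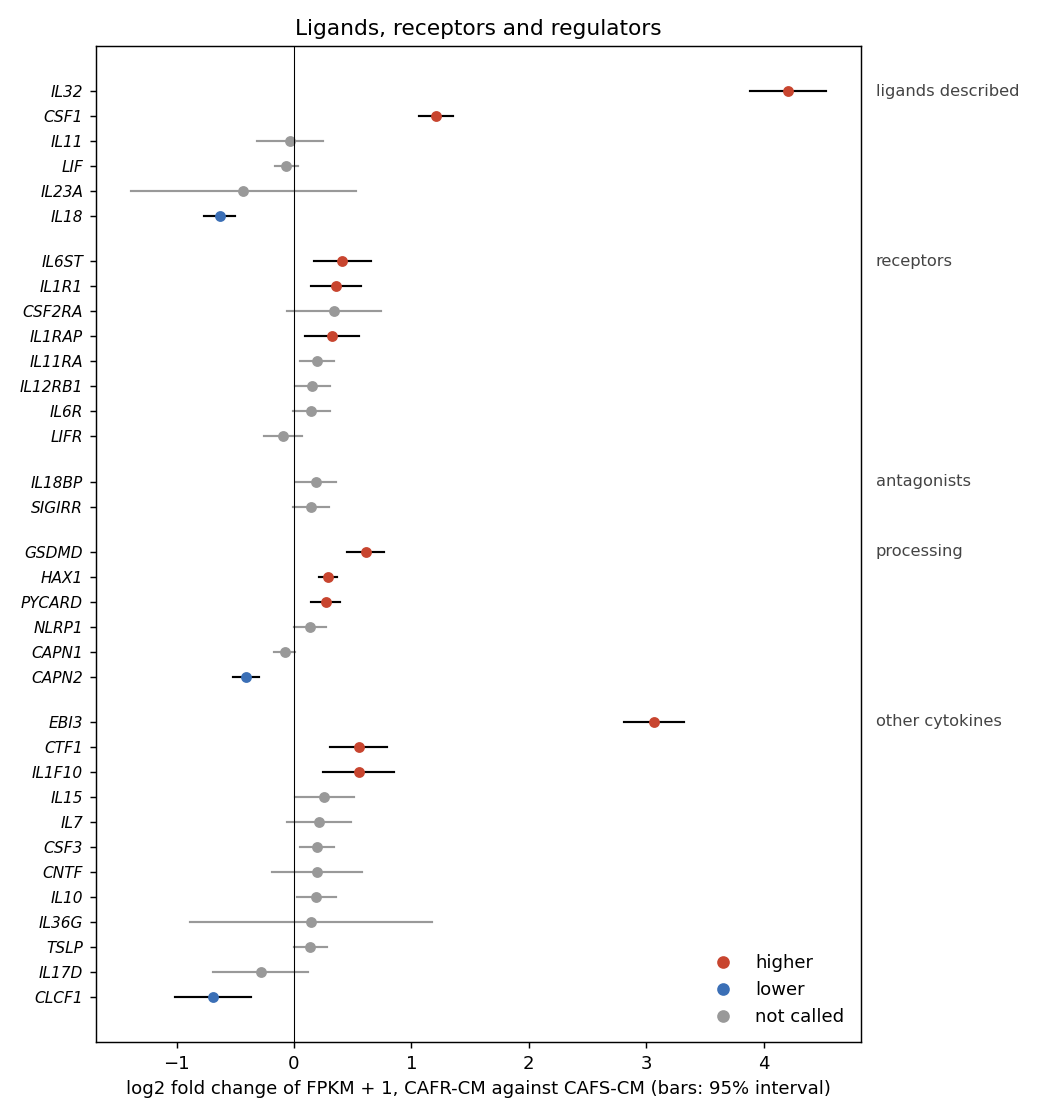
Log2 fold change of FPKM + 1 (CAFR-CM against CAFS-CM) with 95% intervals from limma for the tested members, receptors, antagonists, processing genes and other cytokines. Color gives the call, and CSF2 is left off, being listed at 0 in every CAFS-CM library. Of the members IL32 and CSF1 lie to the right of 0, IL18 to the left, and the intervals of LIF, IL11 and IL23A cross 0.

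The natural antagonists of the IL-1 family and related cytokines showed no call, with 2 of 6 tested and a median log2 fold change of 0.17. IL18BP, the secreted protein that binds and neutralizes IL18, was at 8.08, 9.09 and 7.76 FPKM in the CAFS-CM replicates and at 9.17, 9.68 and 9.94 FPKM in the CAFR-CM replicates (adjusted p = 0.0964 from limma). SIGIRR, an inhibitory receptor of the IL-1 family, was at 27.17, 27.29 and 26.98 FPKM and at 31.2, 27.15 and 32.13 FPKM (adjusted p = 0.152 from limma, and 0.0150 without CAFR-CM replicate 2, the lowest of its group). IL1RN, IL1R2, IL36RN and IL13RA2 did not pass 0.14 FPKM in any library.

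Of 9 genes linked to the processing or release of IL-1 family cytokines 6 were tested. Of these, 3 were higher and 1 lower, where 15.1% of all genes tested were higher and 11.1% lower. The median log2 fold change was 0.20 against 0.061 over all genes tested. GSDMD, which encodes the pore protein gasdermin D, rose from 3.55 ± 0.0666 to 5.95 ± 0.230 FPKM (limma adjusted p = 0.00103, log2 fold change 0.61). PYCARD, the ASC adaptor of inflammasomes, rose from 17.8 ± 0.475 to 21.7 ± 1.2 FPKM (0.27 on the log2 scale, adjusted p = 0.00952), and HAX1, whose product binds the IL1A precursor, from 83.7 ± 0.765 to 102.7 ± 2.51 FPKM (0.29, adjusted p = 0.00111, both from limma). CAPN2, a catalytic subunit of calpain, the protease that cleaves the IL1A precursor, fell from 144.0 ± 2.85 to 108.4 ± 5.68 FPKM (limma adjusted p = 0.00110, log2 fold change -0.41). These 4 genes have other roles in cells too. CAPN1 was at 121.9 and 115.3 FPKM (adjusted p = 0.165 from limma). The protease CASP1 itself was at 0.02, 0.09 and 0.07 FPKM in the CAFS-CM replicates and at 0.09, 0.31 and 0.46 FPKM in the CAFR-CM replicates, below the filter. NLRP1, tested only through its CAFR-CM libraries, did not pass 0.20 FPKM (adjusted p = 0.120 from limma), NLRP3 did not pass 0.06 FPKM, and AIM2 was listed at 0 throughout.

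Of 40 other cytokine genes of these families 28 were in the table, 6 of them at 0 in every library, and 12 were tested. Of these, 3 were higher and 1 lower (15.1% and 11.1% of all genes tested), with a median log2 fold change of 0.20 against 0.061 over all genes. TSLP and CSF3 were tested only through their CAFR-CM libraries. The largest log2 fold change of the list was that of EBI3, a chain of IL-27 and IL-35. EBI3 was at 1.91, 1.23 and 1.77 FPKM in the CAFS-CM replicates and at 21.57, 21.25 and 19.98 FPKM in the CAFR-CM replicates. The groups were far apart, with ratios of 10.5 to 17.5 over the pairs of libraries (means 1.64 ± 0.359 and 20.9 ± 0.841 FPKM, SD, n = 3 each, limma adjusted p = 1.13e-05, log2 fold change 3.07 with a standard error of 0.11), at rank 10 of all genes tested, and at rank 21 with 0.1 added to the FPKM. The chains that pair with EBI3 were nearly absent: IL27 was listed at 0 throughout and IL12A did not pass 0.14 FPKM. IL12B, which pairs with IL23A, did not pass 0.28 FPKM.

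The other called cytokines included 2 ligands of the IL-6 family that moved in opposite directions. CLCF1, which signals through gp130 and LIFR, was at 7.32, 7.87 and 8.88 FPKM in the CAFS-CM replicates and at 4.62, 5.62 and 3.68 FPKM in the CAFR-CM replicates. It fell with no overlap (limma adjusted p = 0.0109, log2 fold change -0.69). CTF1 (cardiotrophin-1), a ligand of the same receptor chains, rose from 1.51 ± 0.199 to 2.68 ± 0.270 FPKM (SD, n = 3 each, limma adjusted p = 0.00866, log2 fold change 0.55). IL1F10, an IL-1 family member, rose from 0.203 ± 0.0961 to 0.773 ± 0.272 FPKM (limma adjusted p = 0.0199, log2 fold change 0.55, the adjusted p being 0.0698 or 0.0570 without CAFS-CM replicate 1 or 2). CSF3 (G-CSF), the granulocyte growth factor, was at 0.05, 0 and 0.04 FPKM in the CAFS-CM replicates and at 0.24, 0.17 and 0.13 FPKM in the CAFR-CM replicates. The groups did not overlap, and the adjusted p was 0.0591 from limma. CSF3 was called higher in 2 of the 9 alternatives that tested it (0.0401 with 0.1 added to the FPKM and 0.0343 with no filter). It was not called in the others, such as a replicate block (0.104) and cyclic loess scaling (0.210).

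**Figure D5:**
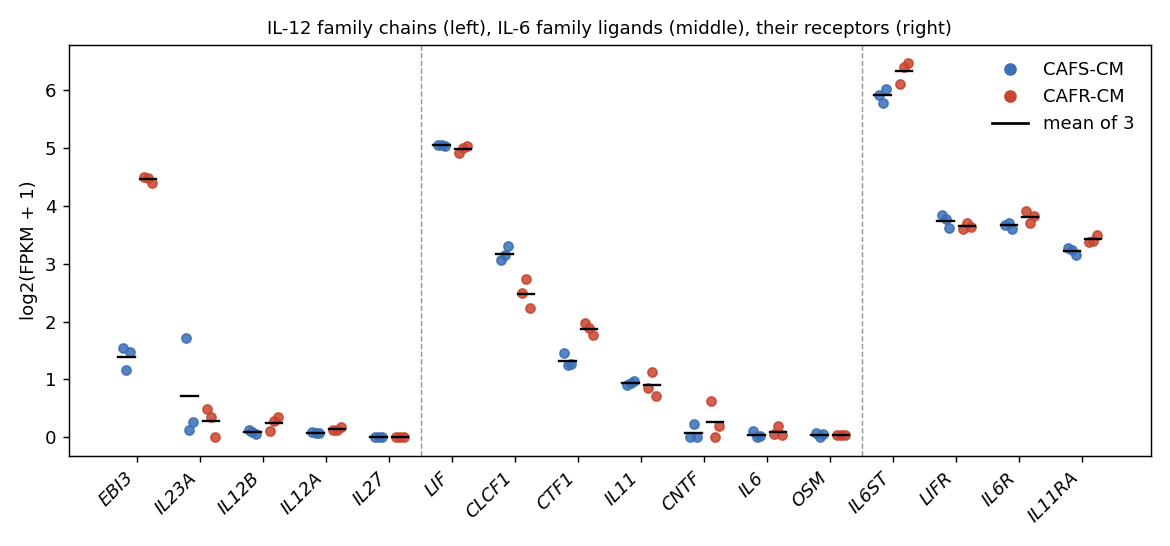
Level in each library, as log2(FPKM + 1), of the IL-12 family chains, the IL-6 family ligands and the receptors of the latter, with 3 points per group and a bar at each mean. EBI3 moved from 1.23 to 1.91 FPKM up to 19.98 to 21.57 FPKM while IL27 stayed at 0, and LIF was the most abundant ligand of the IL-6 family in every library.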

How the data were processed

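Panc-1 RNA was measured in 6 samples, 3 per group. Per the study's methods and the submitters' processing notes, the authors used SOAPnuke to filter reads, HISAT2 (version 2.0.4) to map them to GRCh38.p13, RSEM (version 1.2.12) to quantify genes and DESeq2 (version 1.4.5) to test them, and Bowtie2 (version 2.2.5) is named too. No source used here states the annotation or the strand setting. The authors deposited FPKM, rounded to 2 decimals, in 1 table of 97767 rows, of which 55272 are circular RNAs without values and were not used here. FPKM depend on the library total, so a few abundant RNAs can shift the rest.

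Groups came from the sample titles. Log2(FPKM + 1) was modeled for the 23608 genes that passed 0.1 FPKM in 3 or more libraries in R (version 4.3.3) by limma (version 3.58.1), the prior variance following the mean level, and p-values were adjusted by Benjamini-Hochberg over the whole set. The study calls the samples of a group biological replicates and used 1 CAF line per medium. The labels do not say whether they were separate cultures, so p-values measure only the spread between these samples. When the comparison was simulated with 22541 genes, calls reached 76 of 100 true 2-fold changes and 94 of 100 true 4-fold changes, and 9 of 179 calls were false. The changed genes were drawn only from those with a mean log2(FPKM + 1) of 1 or more after CAFS-CM. Each gene had 1 normal spread for both groups, and far fewer genes were changed than were called in the data. These rates therefore do not cover low genes such as CSF2, IL11 and IL23A. The 13 alternatives were another pseudocount, other filters, scalings and thresholds, a replicate block and leaving out each sample.

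The members, the 4 lists of related genes and the 4 marker lists were chosen with earlier results of these data known. Named are all members, listed genes that were called, receptors, antagonists and processing genes of called members, and the 3 genes most like IL32. Listed genes named beyond these (IL6R, IL11RA, LIFR, CSF3, IL12A, IL12B and IL27, for example) were chosen after their values were seen. Promoters were read from RefSeq (GRCh38.p14) and gene positions from GENCODE v44. A promoter was printed up to 26 bases into the first annotated exon at most.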

Additional observations from a re-analysis of the deposited data

How the results depend on the processing

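IL32, CSF1, IL18, EBI3, CTF1, GSDMD, PYCARD, HAX1 and CAPN2 kept their direction and their call under all 13 alternatives. The log2 fold change of IL32 ran from 4.05 to 4.73 (adjusted p = 2.85e-06 to 4.82e-04), that of CSF1 from 1.17 to 1.27 and that of IL18 from -0.67 to -0.60, and the adjusted p of LIF from 0.229 to 0.949 (limma). CSF2 was called in 8 of the 9 alternatives that tested it, not at an adjusted p under 0.01. It was not tested with a mean of 1 FPKM or more or without CAFR-CM replicate 1, 2 or 3. The alternatives that tested it all kept every CAFR-CM library, so they do not show that the call holds without one. Members higher numbered 2 to 3 and members lower 1 throughout when a library was left out.

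At an adjusted p under 0.01, 1751 genes were higher and 1431 lower, no receptor was higher (0) and none of the other cytokines lower (0). Leaving out a library gave 2330 to 3328 genes higher and 1799 to 2405 lower, 0 to 2 receptors higher, 0 to 1 antagonists higher and 1 to 2 of the other cytokines lower, the added call being IL17D (log2 fold change -0.47, adjusted p = 0.0295 without CAFR-CM replicate 1, limma). Receptors higher numbered 1 with no filter (IL18R1, adjusted p = 0.0483 from limma, none of the 3 called before), 1 with cyclic loess scaling, 1 with a replicate block and 2 with equal totals, but 4 with 0.1 added to the FPKM and 4 over genes with a mean of 1 FPKM or more, where IL11RA was called too. CSF3 was called higher with 0.1 added and with no filter, and NLRP1 with no filter (adjusted p = 0.0428). With the block, 2891 genes were higher and 2340 lower. Deviations from the group means showed no clear pairing by replicate number. The correlations of same-numbered deviations were 0.0198, -0.0285 and 0.0621, and CAFS-CM replicate 2 was closest to CAFR-CM replicate 1 (0.0666). Whether same-numbered samples were handled together is not stated by the labels and cannot be told from these values.

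Uncalled log2 fold changes that turned were those of IL11 (0.054 without CAFR-CM replicate 3, -0.15 to 0.054 over the libraries left out), IL23A (0.070 without CAFS-CM replicate 1, -0.72 to 0.070), CAPN1 (0.027 with cyclic loess scaling) and IL36G (-0.24 with 0.1 added to the FPKM, -0.047 without CAFS-CM replicate 3, -0.047 to 0.41 over the libraries left out). Apart from the fewer samples or the stricter threshold, the cause was not tested. Libraries of a group differed by an SD of 0.217 to 0.220 (CAFS-CM) and 0.283 to 0.294 (CAFR-CM) on the log2 scale, while the fit takes 1 spread for both. With 2 decimals and an unknown depth, values under 0.1 FPKM give no firm zero.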
